A study of Mus musculus with 6 samples.

Results

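Protein phosphatase 1 (PP1) removes phosphate from serine and threonine residues, and 8 genes of its catalytic subunits, inhibitors and dendritic spine-targeting subunits were examined in the mouse striatum. They are Ppp1ca, Ppp1cb and Ppp1cc, which encode the catalytic subunits alpha, beta and gamma; Ppp1r1a, Ppp1r1b and Ppp1r2, which encode inhibitors; and Ppp1r9a and Ppp1r9b, which encode the spine-targeting subunits neurabin and spinophilin. The 8 genes were taken by symbol from 46078 genes in the table of normalized read counts, and all 8 were among the 17605 tested genes, those whose mean reached 10. They were chosen in part because Ppp1r1a differed between genotypes in these same mice. The differences between genotypes in the 8 genes are therefore given as a description, with no P value.

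RNA-seq was performed on the striatum of 12-week-old male mice on a C57BL/6J background, 3 wild-type (WT) mice and 3 Shank3 transgenic (TG) mice, with 1 library per mouse. The TG mice carry an EGFP-tagged Shank3 transgene in addition to their own Shank3 gene, which encodes a scaffold protein of the excitatory postsynapse, and the WT mice carry no transgene. The promoter of the transgene is not given in the sources used here, and transgenic and endogenous Shank3 reads share 1 value per mouse. The comparison asks which striatal transcripts differ when Shank3 is overexpressed. The normalized read count is the number of reads counted on a gene divided by a size factor of the library.

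The catalytic subunits of PP1 have little substrate choice of their own and work in complexes with regulatory subunits. In striatal medium spiny neurons, DARPP-32 (the product of Ppp1r1b) becomes an inhibitor of PP1 once protein kinase A, activated by dopamine through D1 receptors, phosphorylates it, and the phosphatase calcineurin reverses this step. Inhibitor-1 (Ppp1r1a) is a relative of DARPP-32 that is controlled in the same way, inhibitor-2 (Ppp1r2) is a separate inhibitor that does not need protein kinase A, and spinophilin and neurabin bind actin and hold PP1 in dendritic spines near glutamate receptors.

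The products of Ppp1r1a, Ppp1r1b, Ppp1r9a and Ppp1r9b share a short docking motif that binds a groove on the catalytic subunit. The codons of the motif are shown because these inhibitors and targeting subunits meet PP1 through the same contact. The motif was not looked for in Ppp1r2. The coding sequences below are from GENCODE M21 transcripts on GRCm38, read 5′ to 3′ on the coding strand. In Ppp1r1a and Ppp1r1b the first capitals are the 4 codons of the docking motif, codons 9 to 12 and 8 to 11, and the later capitals are the codon of the threonine that protein kinase A phosphorylates, codon 35 and codon 34. Both stretches run from the start codon across exons 1 and 2, at chr15:103534381-103537878 (minus strand) and chr11:98349094-98350598 (plus strand), with the intron left out. In Ppp1r9a (chr6:4906800-4906841, plus strand) and Ppp1r9b (chr11:94992874-94992915, plus strand) the capitals are the docking codons, 457 to 460 and 448 to 451, both in coding exon 1.
Ppp1r1a: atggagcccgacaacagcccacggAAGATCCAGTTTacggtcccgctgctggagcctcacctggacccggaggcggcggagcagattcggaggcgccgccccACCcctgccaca
Ppp1r1b: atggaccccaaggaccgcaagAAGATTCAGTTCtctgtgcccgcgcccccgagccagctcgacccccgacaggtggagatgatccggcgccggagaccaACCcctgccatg
Ppp1r9a: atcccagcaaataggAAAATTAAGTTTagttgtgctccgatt
Ppp1r9b: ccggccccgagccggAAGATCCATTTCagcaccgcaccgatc

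The 3 catalytic subunits are close paralogs that differ most at their C-terminal ends. These ends are shown as an example of the differences by which reads of the 3 genes are told apart, which are not limited to the ends. The capitals mark the codon of the threonine that cyclin-dependent kinases phosphorylate, codon 320 in Ppp1ca, 316 in Ppp1cb and 311 in Ppp1cc, and each sequence ends before the stop codon. The stretches lie at chr19:4195033-4195089 for Ppp1ca, chr5:32490996-32491055 for Ppp1cb and chr5:122174079-122174141 for the gamma1 transcript of Ppp1cc, all on the plus strand. The gamma2 transcript of Ppp1cc uses a further exon and ends at 122175047, and the deposited values give 1 number for both transcripts.
Ppp1ca: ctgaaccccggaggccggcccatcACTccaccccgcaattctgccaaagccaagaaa
Ppp1cb: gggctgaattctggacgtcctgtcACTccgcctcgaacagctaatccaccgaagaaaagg
Ppp1cc gamma1: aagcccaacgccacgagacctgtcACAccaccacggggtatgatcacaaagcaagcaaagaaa
Ppp1cc gamma2: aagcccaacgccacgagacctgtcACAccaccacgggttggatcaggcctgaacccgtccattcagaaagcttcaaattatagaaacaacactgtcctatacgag

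Over the aligned coding sequence, Ppp1ca and Ppp1cc had 79.1% of bases in common, Ppp1cb and Ppp1cc 75.4%, and Ppp1ca and Ppp1cb 75.2%. The longest stretch of identical bases between any pair of them was 44, between Ppp1ca and Ppp1cc. Ppp1r1a and Ppp1r1b were less alike, at 55.2% with no identical stretch over 10 bases, and Ppp1r9a and Ppp1r9b were at 63.2% with a longest stretch of 14. Of the annotated pseudogenes, Ppp1ccb was at 77.6 to 109 normalized reads and Ppp1r2-ps4 at 21.5 to 36.6, far under their parent genes, and each of 6 other Ppp1r2 pseudogenes had at most 3 reads in a library. Some exons also overlap other genes: 225 of 2520 exon bases of Ppp1ca lie opposite Rad9a (320 to 359 normalized reads) and 460 of 2928 exon bases of Ppp1r1b lie opposite the transcript 1700003D09Rik (206 to 306). A further antisense gene, AC109138.6, lies opposite 191 exon bases of Ppp1ca and has no value. The library kit does not mark strand, so reads in those stretches cannot be assigned to a strand. On the same strand, 1908 of 10913 exon bases of Ppp1cb are shared with Gm43312 (0 to 1.14 normalized reads). How reads in that stretch were counted is not known, which bears on the level of Ppp1cb per kb.

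Recovered counts per library ranged from 27689589 to 36647626. Shank3 was at 26044 to 29891 normalized reads in the TG mice and 12918 to 13865 in the WT mice, a log2 difference of 1.05 (SE 0.060, adjusted P = 7.04e-05, limma). It was the only gene of 17605 called by limma at an adjusted P under 0.05, 0.00568% of the genes tested, whereas DESeq2 called 7 genes (0.0398%) and edgeR 1. TG replicate 1 stood apart in choroid plexus markers, the tissue that makes cerebrospinal fluid: the summed normalized count of 10 markers was 28703 in that mouse and 8045 to 9381 in the other 5. In the other 5 mice that sum is mostly Enpp2, and the median log2 ratio of the 10 markers to the WT mean was 2.98, 1.00 and -0.17 in TG replicates 1, 2 and 3, so that TG replicate 2 was also raised. Ttr, for example, was at 13701 and 1122 in TG replicates 1 and 2 and at 119.7 to 432 in the other 4 mice. The 12 medium spiny neuron markers summed to 147866, 203641 and 172908 in TG replicates 1, 2 and 3 and to 176740.0, 185565 and 203940.0 in WT replicates 1, 2 and 3 and all 12 were detected in each library.

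The order of transcript levels was led by the DARPP-32 gene. Divided by the merged exon length in kb, Ppp1r1b had 8554 ± 982 normalized reads per kb (mean ± SD, n = 6 mice, both genotypes) and Ppp1r9b 7114 ± 392. The ranges of these 2 genes overlapped across mice, but within each of the 6 mice Ppp1r1b was the higher. Ppp1ca followed at 2984 ± 118 per kb and was the highest of the catalytic subunits on this length. Ppp1r1a (1928 ± 177) and Ppp1cc (1884 ± 109) had overlapping ranges, and Ppp1r1a was the higher in 3 of 6 mice. The same held for Ppp1r9a (1371 ± 112) and Ppp1r2 (1363 ± 84.1), with Ppp1r9a above in 3 of 6 mice, and Ppp1cb was lowest at 831 ± 30.6. Even Ppp1cb stood above 90.3% of the 17519 tested genes with a known length, and Ppp1r1b above 99.6%.

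The order below these leading genes depends on the length used. With the longest transcript in place of merged exons, Ppp1r1b and Ppp1r9b kept ranks 1 and 2 and Ppp1ca rank 3, while Ppp1r1a moved from rank 4 to rank 6 and Ppp1r2 from 7 to 8. With the coding length, Ppp1r2 stood at rank 3, Ppp1cb at rank 4, above Ppp1ca at rank 5, and Ppp1r1a at rank 8. Within the WT mice alone, Ppp1r1b was at 8967 ± 742 per kb, Ppp1r9b at 7439 ± 209 and Ppp1ca at 3057 ± 75.5 (SD, n = 3).

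**Figure D1:**
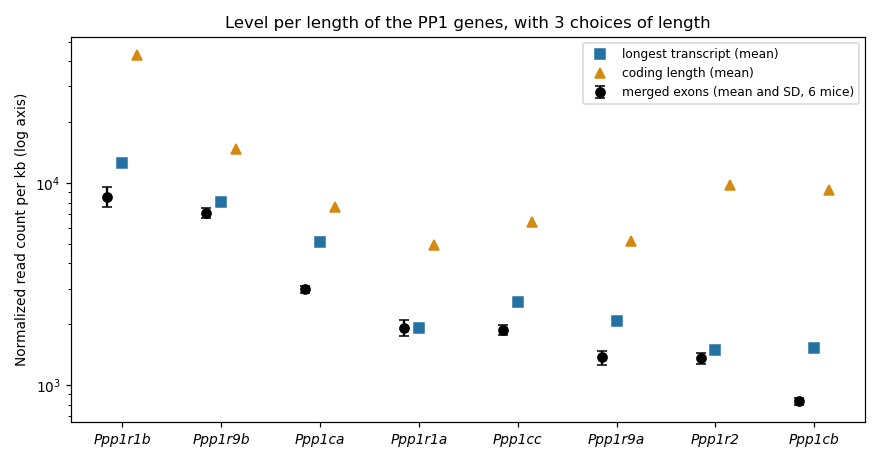
Normalized reads per kb (log axis) for the 8 PP1 genes, ordered by level over merged exons (black circles, mean and SD of the 6 mice), with the mean over the longest transcript (blue squares) and over the coding length (orange triangles). Ppp1r1b and Ppp1r9b are highest with all 3 lengths, while the order of the other genes changes with the length used.

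Between genotypes, the clearest separations were in 1 inhibitor and 1 targeting subunit, both lower in every TG mouse than in any WT mouse. Ppp1r1a was 14.2% lower on average in the TG mice and Ppp1r9b 8.72% lower. The other 6 genes had overlapping groups, 4 of them with a higher and 2 with a lower value in the TG mice on the log2 scale. In all, 2 of the 8 genes were lower with no overlap and none was higher with no overlap, beside 5.05% of all genes tested that were lower and 5.06% that were higher with no overlap. As the genes were chosen with the difference in Ppp1r1a known, nothing is read from that count. None of the 8 was called by limma, DESeq2 or edgeR at an adjusted P under 0.05. The median log2 difference of the 8 genes was -0.034, beside -0.0018 for all genes tested, whose 5th and 95th percentiles were -0.27 and 0.23.

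**Figure D2:**
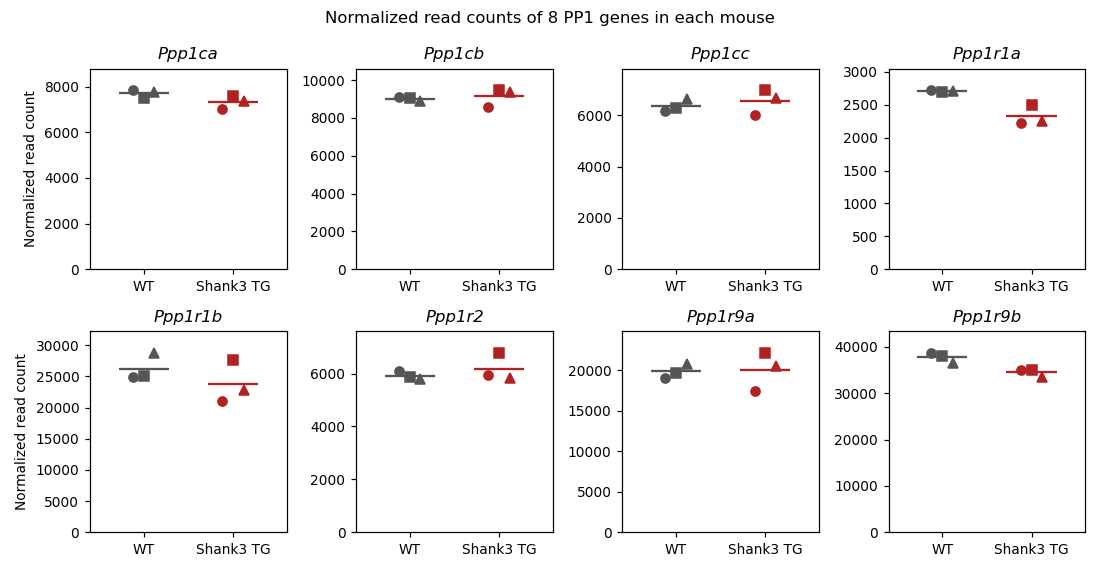
Normalized read counts of the 8 PP1 genes in each of the 3 WT and 3 TG mice, with a panel and a vertical scale for each gene, points for mice and a bar for each group mean. The TG points of Ppp1r1a (2221 to 2497) and Ppp1r9b (33604 to 34998) all lie below the WT points, and in the other 6 panels the groups overlap.

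Among the catalytic subunits the differences were small. Ppp1ca (chr19:4192065-4195420, plus strand) was at 7036, 7610.5 and 7355 normalized reads in TG replicates 1, 2 and 3 and at 7853, 7490.3 and 7769.5 in WT replicates 1, 2 and 3. The highest TG mouse was above the lowest WT mouse, and the log2 difference was -0.072 (SE 0.047). It was -0.042 without TG replicate 1 and -0.099 without TG replicate 2. Ppp1cb (chr5:32458843-32517433, plus strand) was at 8551, 9469.5 and 9389.7 in the TG mice, against 9078, 9046.5 and 8909 in the WT mice, a log2 difference of 0.018 (SE 0.050). The WT mice of Ppp1cb lay within a narrow band that the TG mice straddled, with TG replicate 1 below and the other 2 above. Ppp1cc (chr5:122158278-122175273, plus strand) was at 5992, 6977 and 6666 in the TG mice, against 6142, 6285 and 6638 in the WT mice, a log2 difference of 0.040 (SE 0.061). TG replicate 1 again held the lowest value and TG replicate 2 the highest.

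The make-up of the catalytic pool was also compared within each mouse, where a factor common to the 3 genes cancels. Ppp1ca made up 52.4%, 51.0% and 51.0% of the summed catalytic reads per kb in TG replicates 1, 2 and 3 and 54.3%, 52.7% and 52.8% in WT replicates 1, 2 and 3. The groups did not overlap, and the means were 51.5% ± 0.842 and 53.3% ± 0.868 (SD, n = 3). Ppp1cc made up 33.7% ± 0.795 in the TG mice and 32.3% ± 1.00 in the WT mice, and Ppp1cb 14.8% ± 0.204 and 14.4% ± 0.370, both with overlapping groups. The order of the subunits depends on the length: with the coding length the mean shares over the 6 mice were 39.8% for Ppp1cb, 32.7% for Ppp1ca and 27.5% for Ppp1cc. With each of the 3 lengths the Ppp1ca share was lower in every TG mouse than in any WT mouse. The lengths only reweight the same values of a mouse, so this is not separate support. Of single genes tested, 10.1% had no overlap in either direction, and the share among such ratios was not computed.

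Of the inhibitors, Ppp1r1a (inhibitor-1; chr15:103530279-103538003, minus strand) had the most distinct groups. It was at 2221, 2497 and 2258 normalized reads in TG replicates 1, 2 and 3 and at 2725, 2689 and 2715.5 in WT replicates 1, 2 and 3. The WT mice lay close together (SD 18.8) and the TG mice were more spread (SD 150.2), with TG replicate 2 nearest the WT mice. The log2 difference was -0.22 (SE 0.054), and 12.1% of all genes tested had a larger one in size. Each value rests on 2222 to 2875 reads, for which counting error is at most 2.12%. Leaving out TG replicate 1, the mouse with high choroid plexus markers, gave -0.19, and leaving out TG replicate 2 gave -0.28.

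Ppp1r1b (DARPP-32; chr11:98348404-98357796, plus strand) was at 21063, 27626 and 22819.5 in TG replicates 1, 2 and 3 and at 24935, 25065 and 28763 in WT replicates 1, 2 and 3. TG replicate 2 exceeded 2 of the WT mice while the other TG mice were below all of them, so the groups overlapped. The log2 difference of -0.15 (SE 0.094) became -0.061 without TG replicate 1 and -0.26 without TG replicate 2, and thus rests on which TG mice are included. Ppp1r2 (inhibitor-2; chr16:31251537-31275277, minus strand) was at 5933, 6783 and 5831 in the TG mice, against 6100.1, 5871 and 5799 in the WT mice, a log2 difference of 0.059 (SE 0.060). Without TG replicate 2, the highest of the 6, it was -0.0099.

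The inhibitors were also set against the summed catalytic subunits in each mouse. The ratio of Ppp1r1a to the summed catalytic reads per kb was 0.319, 0.323 and 0.302 in TG replicates 1, 2 and 3 and 0.363, 0.365 and 0.356 in WT replicates 1, 2 and 3. The groups did not overlap. Ppp1r1a alone was already lower in every TG mouse, and its difference was known when the genes were chosen, so nothing is read from that separation. The ratio of Ppp1r1b to the catalytic sum was 1.43 ± 0.137 in the TG mice and 1.56 ± 0.106 in the WT mice (SD, n = 3), with overlapping groups, so that on merged exons DARPP-32 transcripts outnumbered catalytic transcripts per unit of exon length in each of the 6 mice. For Ppp1r2 the ratio was 0.246 ± 0.0149 in the TG mice, against 0.233 ± 0.00797 in the WT mice, with overlapping groups. Per kb, Ppp1r1a was at 0.220 ± 0.0169 of Ppp1r1b in the TG mice and 0.232 ± 0.0181 in the WT mice, also overlapping. The size of that ratio depends on the length, with a mean over the 6 mice of 0.226 on merged exons, 0.155 on the longest transcript and 0.115 on the coding length.

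Of the spine-targeting subunits, Ppp1r9b had groups that did not overlap and Ppp1r9a had overlapping groups. Whether their differences between genotypes are unlike was not tested. Ppp1r9b (spinophilin; chr11:94991035-95006899, plus strand) was at 34934, 34998 and 33604 in TG replicates 1, 2 and 3 and at 38699.8, 38096 and 36635 in WT replicates 1, 2 and 3. Every TG mouse was below every WT mouse, and the log2 difference was -0.13 (SE 0.051), a size exceeded by 24.8% of the genes tested. It was -0.14 without TG replicate 1 and the same without TG replicate 2. Ppp1r9a (neurabin; chr6:4902917-5165661, plus strand) was at 17360.0, 22114 and 20502 in the TG mice, against 19060.3, 19675 and 20808 in the WT mice. The TG mice of Ppp1r9a fell on both sides of the WT mice, and the log2 difference was 0.0041 (SE 0.080). Per kb, spinophilin was at 4.99 ± 0.668 times neurabin in the TG mice and 5.46 ± 0.391 times in the WT mice (SD, n = 3), with overlapping groups. Over the 6 mice the mean ratio was 5.22 on merged exons, 3.87 on the longest transcript and 2.89 on the coding length.

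**Figure D3:**
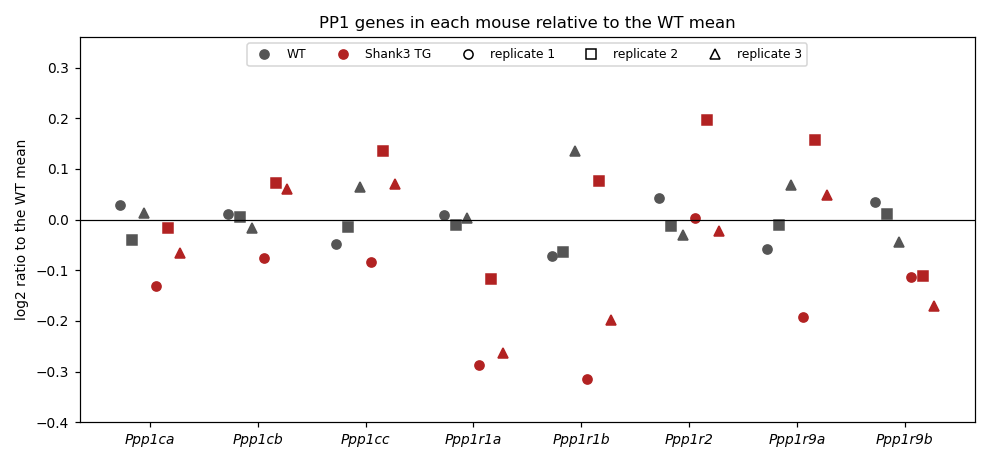
Log2 ratio of each mouse to the WT mean for the 8 PP1 genes, with the groups in separate colours, a shape for each replicate number and a line at 0. TG replicate 1 is the lowest TG mouse in 6 of the 8 genes; the TG mice of Ppp1r1a lie at -0.29, -0.12 and -0.26, while those of Ppp1r9a lie on both sides of 0.

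The 8 genes varied by different amounts among mice of 1 genotype. The pooled SD on the log2 scale was 0.164 for Ppp1r1b and 0.134 for Ppp1r9a, larger than that of 95.7% and 90.0% of genes within 2-fold of their abundance. Ppp1r9b had the smallest, 0.0371, and 13.2% of genes of like abundance had a smaller one. Ppp1r1a, at 0.0652, was near the median of its 4097 genes of like abundance, 0.0645. Counting error was at most 2.12% for any of these values.

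The mouse-to-mouse pattern of Ppp1r1b followed that of most of the medium spiny neuron markers. Its ratio to the geometric mean of the 12 markers was 2.50, 2.40 and 2.37 in TG replicates 1, 2 and 3 and 2.50, 2.43 and 2.59 in WT replicates 1, 2 and 3, a range of 2.37 to 2.59 with no separation of the groups. Over the 12831 genes whose mean reached 100, the genes most like Ppp1r1b were Ebf1, Adra2c, Arhgap18, Syndig1l and Adcy5, with root mean square differences of the centred log2 values from 0.0215 to 0.0308 over the 6 mice. Of the 12 markers, 5 were among the 100 genes nearest to Ppp1r1b, but Tac1 and Pdyn ranked 2122 and 3157. None was among the 100 nearest to any of the other 7 genes. Single markers did rank high for some of these, with Foxp1 at 296 for Ppp1r9a, Bcl11b at 303 for Ppp1r1a and Tac1 at 382 for Ppp1r2. The median rank of the 12 markers was 103 for Ppp1r1b and at least 2101.5 for each of the others. These ranks also depend on the size of the deviations, so a gene of small spread ranks far from the markers even with a like pattern. Ppp1r9a, Ppp1cb and Ppp1cc were, like the mean of the markers, lowest in TG replicate 1 and highest in TG replicate 2. Following the markers is therefore not shown to be particular to Ppp1r1b. For Ppp1r1a the nearest genes were Btbd17, Lxn, Rpl23a, Dclk3 and Grin2c, at 0.0231 to 0.0393. Their own log2 differences, TG minus WT, ran from -0.26 to -0.17. Values were centred over both genotypes, so the difference for which Ppp1r1a was chosen enters this likeness. These likenesses come from 6 mice that share their size factors and are a description.

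**Figure D4:**
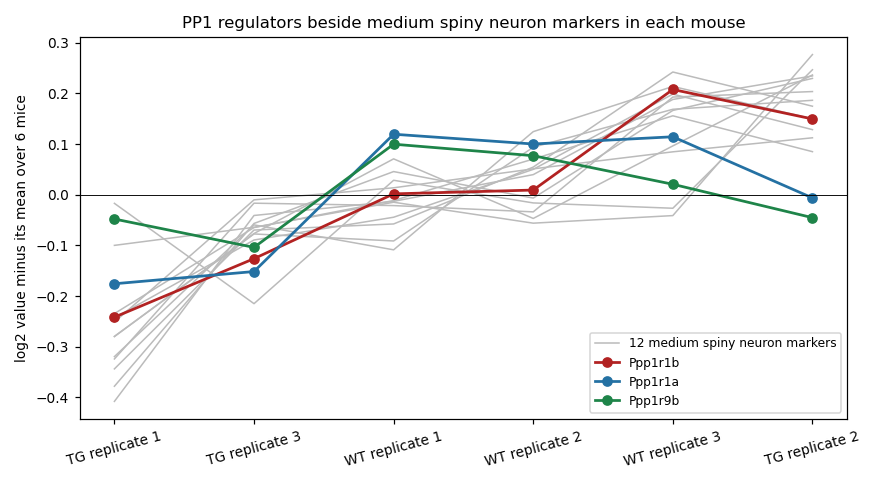
Log2 deviation from the mean of the 6 mice for Ppp1r1b, Ppp1r1a and Ppp1r9b (coloured) and for the 12 medium spiny neuron markers (grey), with the mice placed in order of the mean marker deviation, from -0.26 in TG replicate 1 to 0.19 in TG replicate 2. Ppp1r1b runs with most grey lines, whereas Ppp1r9b is highest in WT replicate 1 and below 0 in TG replicate 2.

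The markers of spiny neurons themselves were lower in the TG mice for 10 of 12 genes, with a median log2 difference of -0.13 and overlapping groups for each of the 12. That direction rests on TG replicate 1: without it the median was 0.0096, with 7 of 12 higher, while it was -0.23 without TG replicate 2 and -0.074 without WT replicate 3. Pde10a, the most abundant of them, was at 37618 ± 6060 in the TG mice and 41639 ± 4688 in the WT mice (SD, n = 3). None of the 12 was called by limma, DESeq2 or edgeR, and none had an unadjusted P under 0.05 in limma. Relative to the 12 markers, a scaling chosen after seeing the data, the groups of Ppp1r1a overlapped, with 0.264, 0.217 and 0.235 in TG replicates 1, 2 and 3 and 0.273, 0.261 and 0.244 in WT replicates 1, 2 and 3, and the log2 difference was -0.12. On this scale Ppp1r9b was at -0.034 with overlapping groups, and the TG mice of Ppp1r9a were all above the WT mice, at 0.10. This scale moves the median of all genes to 0.095. In bulk tissue, fewer cells of a type and less RNA per cell cannot be told apart.

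Markers of other cells were set beside these results. The summed microglia markers were the only sums without overlap between the groups, at 9794 to 10461 in the TG mice and 10547 to 11040 in the WT mice, and 8 of 8 markers were lower, with a median log2 difference of -0.11. For Csf1r, the most abundant, the log2 difference was -0.087 (SE 0.063). The 10 cortical excitatory neuron markers, led by Slc17a7, summed to 30436 to 43243 in the TG mice and 35374 to 40946 in the WT mice, with 5 higher and 5 lower, and 8 higher without TG replicate 2. Choroid plexus markers, led by Enpp2, were higher for 10 of 10 genes, with a median of 1.08, but without TG replicate 1 the median was 0.22, with 5 of the 8 markers that passed the filter higher. Sums of the oligodendrocyte (led by Mbp), astrocyte (Slc1a2), thalamic (Rora) and endothelial (Flt1) markers overlapped between groups, and their medians lay between -0.032 and 0.071 (-0.070 to 0.27 when single mice were left out). None of these markers was at 0 in all libraries or called by limma, DESeq2 or edgeR, while 3 microglia markers (lower in the TG mice), 3 choroid plexus markers and 1 endothelial marker (higher) had an unadjusted P under 0.05 in limma. Of all genes tested, 4.31% had such a P, 2.33% lower and 1.98% higher in the TG mice. The part of these cells in the values of Ppp1r1a and Ppp1r9b was not tested.

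The wider pathway held 68 further genes in 5 lists, of which 64 were tested. None was called by limma, DESeq2 or edgeR, with adjusted P values from 0.971 to 0.999 in limma, and 1 had an unadjusted P under 0.05. The TG mice were higher for 34 and lower for 30 of the 64, with a median log2 difference of 0.0099. The groups did not overlap for 5 of the 64, or 7.81%, beside 10.1% of all genes tested.

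Among 4 tested genes of other PP1 inhibitors, 3 were lower and 1 higher. Ppp1r14b, whose product belongs to a family of PP1 inhibitors activated by phosphorylation, was at 453, 439 and 394 in TG replicates 1, 2 and 3 and at 461, 514 and 496 in WT replicates 1, 2 and 3. It was the gene with an unadjusted P under 0.05, and its groups did not overlap (log2 difference -0.19, SE 0.080, adjusted P = 0.971, limma). Of the same family, Ppp1r14a was at -0.10 (SE 0.087) and Ppp1r14c at 0.13 (SE 0.10), both with overlapping groups. Of 33 other targeting subunits, 15 were higher and 18 lower, with overlapping groups for each and a median of -0.015. The largest differences among those with a mean of at least 100 were in Phactr2 (0.12) and Ppp1r3d (0.12) on the higher side and in Ppp1r3e (-0.13) and Ppp1r3g (-0.12) on the lower, the last 3 being glycogen-targeting subunits.

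Of 14 subunits of kinases that phosphorylate DARPP-32 or inhibitor-1, 10 were higher and 4 lower, with a median of 0.028 that ranged from 0.0016 (without WT replicate 3) to 0.045 (without TG replicate 2). Prkar2a, a regulatory subunit of protein kinase A, was at 1747 ± 72.6 in the TG mice and 1626 ± 82.6 in the WT mice (SD, n = 3), a log2 difference of 0.10 (SE 0.056). Csnk2a1, a catalytic subunit of casein kinase 2, was at 0.062 (SE 0.044) with no overlap, and Csnk2b, its regulatory subunit, at -0.041 (SE 0.060). Cdk5r2, an activator of Cdk5, was at 11539 to 12477 in the TG mice and 12565 to 13349 in the WT mice, a log2 difference of -0.10 (SE 0.049).

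Of 10 subunits of the phosphatases that act on DARPP-32 and inhibitor-1, calcineurin and protein phosphatase 2A, 7 were higher and 3 lower, with a median of 0.046 that was 0.026 if TG replicate 3 was left out and 0.057 if TG replicate 1 was. Ppp2r3a was at 0.095 (SE 0.057), Ppp3cc at 0.083 (SE 0.072), Ppp2cb at -0.055 (SE 0.045) with no overlap and Ppp3ca, a catalytic subunit of calcineurin, at -0.053 (SE 0.092). The 3 genes of cAMP-regulated inhibitors of other phosphatases and their relatives were nearer to 0: Ensa at 0.022 (SE 0.055), Arpp19 at -0.016 and Arpp21 at -0.043 (SE 0.072).

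**Figure D5:**
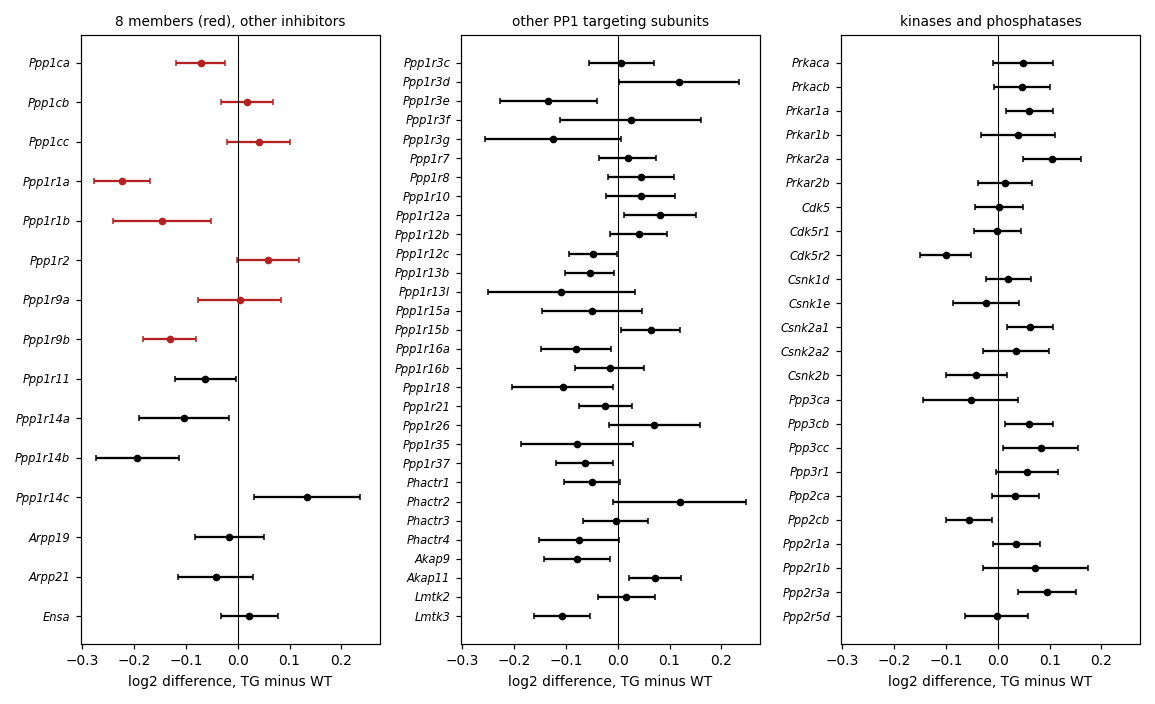
Log2 difference (TG minus WT) with its standard error for the genes of the PP1 and DARPP-32 lists with a mean of at least 100, grouped by list, with the 8 PP1 genes in red. Ppp1r1a (-0.22) and Ppp1r14b (-0.19) are the lowest points, and no gene of these lists was called at an adjusted P under 0.05.

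The mouse's own Shank3 gene and Ppp1r1a lie on chromosome 15, with their starts 14.0 Mb apart. The insertion site of the transgene is not given in the sources used here, so its distance from Ppp1r1a is not known. The genes next to Ppp1r1a were examined as its local context, and an effect of position was not tested. Ppp1r1a is the last tested gene of chromosome 15, so that only the 5 tested genes before it could be used. All 5 were lower in the TG mice, with a median of -0.078 and a range from -0.13 for Zfp385a (chr15:103313895-103340093, SE 0.059, no overlap) to -0.040 for Itga5 (chr15:103344286-103366763, SE 0.081). None of the 5 was called by limma, DESeq2 or edgeR, and none had an unadjusted P under 0.05 in limma (adjusted P from 0.971 to 0.990). Without TG replicate 1 the median was 0.0056.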

How the data were processed

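Striatal RNA of 3 WT and 3 Shank3 TG mice was sequenced in pairs from TruSeq RNA v2 libraries. Per the labels and the study's methods, the authors trimmed reads with Trimmomatic 0.35, aligned them to GRCm38 with TopHat2 2.1.0, counted them with HTSeq and normalized them with DESeq2. The deposited signal is a gene's count after division by its library's DESeq2 size factor. Neither the counting strand nor the annotation release is named in the sources used here. Division by the value of 1 read gave whole counts within 0.01 for 100% of values. Of 46078 identifiers, 45229 matched GENCODE M21, which gave names, lengths and positions.

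The main fit was limma 3.58.1 (R 4.3.3), with its trend option, of log2(value + 1) in the 17605 genes whose mean reached 10, and P values were adjusted by Benjamini-Hochberg (threshold 0.05). A fold change on this scale understates that of low genes. DESeq2 1.42.0 and edgeR 4.0.16 (quasi-likelihood) on the recovered counts, TMM, library totals, other filters and pseudocounts, a replicate block and each mouse left out were alternatives. The fits were tested on simulated data. Levels per kb used merged exons, and sequences were aligned with Biopython 1.88. Replicates are separate mice.

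Beside the 8 genes, the text names in each wider list the 2 with the largest difference in each direction (mean of at least 100), the 5 genes most like Ppp1r1a and Ppp1r1b, the extremes among the neighbours, the most abundant marker of each list and annotated pseudogenes. The genes, lists and tests were chosen with earlier results of these data known.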

Additional observations from a re-analysis of the deposited data

How the results depend on the processing

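The direction of the Ppp1r1a, Ppp1r1b and Ppp1r9b differences held under all 16 alternatives. These refit the same mice, and the genes were chosen with the Ppp1r1a difference known, so nothing is read from that. The median of the 8 genes moved from -0.034 to 0.064 with scaling to the spiny neuron markers, an alternative added after seeing the data. That scaling gave -0.12 for Ppp1r1a, -0.048 for Ppp1r1b and -0.034 for Ppp1r9b, and Ppp1ca changed direction, to 0.026. When each mouse was left out in turn, the median of the 8 genes lay between -0.085 and 0.012. Without TG replicate 2 the values of Ppp1cb, Ppp1cc, Ppp1r2 and Ppp1r9a fell below 0, to -0.0081, -0.0072, -0.0099 and -0.072. Shank3 stayed called, at 1.01 to 1.10 with each mouse left out, and the median of the neighbours of Ppp1r1a lay between -0.11 and 0.0056. The ratio of Ppp1r1b to Ppp1r9b per kb was 1.20 with merged exons, 1.56 with the longest transcript and 2.92 with the coding length, and 1.17 to 1.23 with each mouse left out. No gene of the wider and marker lists was called under any of the 15 alternatives run for them.

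Over all genes, limma called 1, DESeq2 7, limma without a filter 5, and limma without TG replicate 2 or without TG replicate 3 called 2 each. The correlations of deviations between mice with the same replicate number were small, at 0.047, 0.016 and 0.093. Between mice with unlike numbers they ran from -0.125 (TG replicate 1 and WT replicate 3) to 0.077 (TG replicate 1 and WT replicate 2). The labels give no meaning to the number, and whether mice of the same number were handled together was not tested. With the replicate number as a block, limma called 1 gene, 1024 genes in place of 758 had an unadjusted P under 0.05, Shank3 had an adjusted P of 0.000302, and the median of the 8 genes stayed at -0.034. With 3 mice a genotype, the standard errors of the 8 genes were 0.047 to 0.094 on the log2 scale.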
